A study of Mus musculus with 6 samples.

Results

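The 10 genes described here are Slc1a2, Slc1a3, Glul, Aqp4, Kcnj10, Mlc1, Gja1, Gjb6, Aldoc and Dio2. They carry out transport, cell coupling, endfoot and enzymatic functions of astrocytes. They were taken by symbol from the 56884 gene IDs listed in the deposited matrices, and all 10 were among the 16685 genes with at least 20 unique molecular identifiers (UMIs, 1 per captured transcript) in the astrocytes compared. Astrocytes were gated without these genes, as barcodes with at least 1500 UMIs in which at least 3 of 6 other astrocyte genes (Slc39a12, Chrdl1, Hapln1, Slc4a4, Ntsr2 and Fgfr3) were detected.

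The data are single-cell transcriptomes of the cerebral cortex at postnatal day 12 (P12), with 1 BD Rhapsody whole-transcriptome library from 2 pooled Nodal lox/lox control mice and 1 from 2 pooled Nodal iPCKO mice. The iPCKO mice carry Nodal lox/lox and the tamoxifen-inducible Pdgfrb(BAC)-CreERT2 transgene, which recombines in mural cells (pericytes and smooth muscle cells). Whether the controls carry the transgene is not given in the sources used here. Both genotypes received 50 µg tamoxifen on each of the days P1 to P3, sex was not given per library, and meninges were removed before dissociation. The comparison asks how cortical cells differ when pericytes lack the growth factor Nodal, and the 4 lung libraries of the series at P21 (Bdnf and Hgf control and iPCKO) serve only as an outside reference. With 1 library per genotype no test was possible, so a difference has no replicate check and every interval is a 95% interval of counting error alone.

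Astrocytes clear glutamate and potassium from the extracellular space, pass ions and metabolites to each other through gap junctions, and wrap capillaries with endfeet. Glutamate enters through the transporters encoded by Slc1a2 (GLT-1) and Slc1a3 (GLAST) and is turned into glutamine by glutamine synthetase, encoded by Glul. Endfeet concentrate the water channel encoded by Aqp4 and the inward rectifier potassium channel Kir4.1 encoded by Kcnj10, and the membrane protein encoded by Mlc1 lies at contacts between astrocytes and around vessels.

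All 10 genes are protein coding and were matched by gene ID to Gencode vM39 on GRCm39, where they lie on 8 chromosomes. Slc1a2 is at chr2:102488574-102621129 (plus strand), Slc1a3 at chr15:8663604-8741595 (minus strand) and Glul at chr1:153775690-153785469 (plus strand). Kcnj10 is at chr1:172168765-172201652 (plus strand), Mlc1 at chr15:88840084-88863356 (minus strand), and Aqp4 is on the minus strand of chromosome 18. The connexin genes Gja1 and Gjb6 are at chr10:56253241-56278609 (plus strand) and chr14:57360757-57371087 (minus strand). Aldoc is at chr11:78213619-78218889 (plus strand) and Dio2 at chr12:90691322-90705819 (minus strand).

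The control library held 3237 barcodes with at least 1500 UMIs (median 7706) and the iPCKO library 5008 (median 7791.5), and 21 barcodes occurred in both, of which 0 were gated as astrocytes in both. Nodal had 178 UMIs (125 CPM, 108 to 145) in the 252 pericyte-like barcodes of the control and 0 in the 371 of the iPCKO library, where a floor of 3 counts is 1.38 CPM and the exact Poisson upper limit 1.70 CPM. CPM is the count of UMIs scaled to 1000000 UMIs of the same barcodes.

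The gate held 784 barcodes in the control (24.2% of 3237, 22.8 to 25.7) and 856 in the iPCKO library (17.1% of 5008, 16.1 to 18.2), with medians of 10415.5 and 11265 UMIs. Their leading genes against all other barcodes of the same libraries were Chrdl1, Aqp4, Slc7a10, Fgfr3, Myorg, Btbd17, Cldn10, Aldoc, Ntsr2 and Slc6a11, of which Chrdl1, Fgfr3 and Ntsr2 belong to the gate. Gfap, an intermediate filament gene of astrocytes, was at 257 CPM (247 to 268) in control and 260 CPM (249.98 to 269.96) in iPCKO astrocytes. Barcodes that also reached 3 of 6 markers of another class numbered 60 of 784 and 59 of 856, and they were kept.

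The levels of the 10 genes differed with the number of gate genes detected per barcode. Slc1a2 was at 41.6 CPM in control barcodes with 0 gate genes, 224 CPM with 2, 738 CPM with 3, 2712 CPM with 4, 11693 CPM with 5 and 11435 CPM with 6. Aqp4 was at 2.18, 5.48, 57.1, 268, 1348 and 1179 CPM in the same 6 groups of barcodes. Both genes thus reached their plateau at 5 gate genes, and the barcodes just inside the limit of the gate stood well below it. Those barcodes were few, with 73 and 35 control barcodes at 3 and 4 gate genes against 210 and 466 at 5 and 6, and 62 and 32 iPCKO barcodes against 144 and 618. Depth differed between the groups, with control medians of 6067, 7824, 11172, 6803, 2961, 9202.5 and 11291.5 UMIs from 0 to 6 gate genes. The part of depth in these levels was not tested. Control barcodes with 5 or 6 gate genes exceeded those with 3 or 4 by 2.35 (Gja1) to 3.75 (Slc1a3) on the log2 scale.

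**Figure D1:**
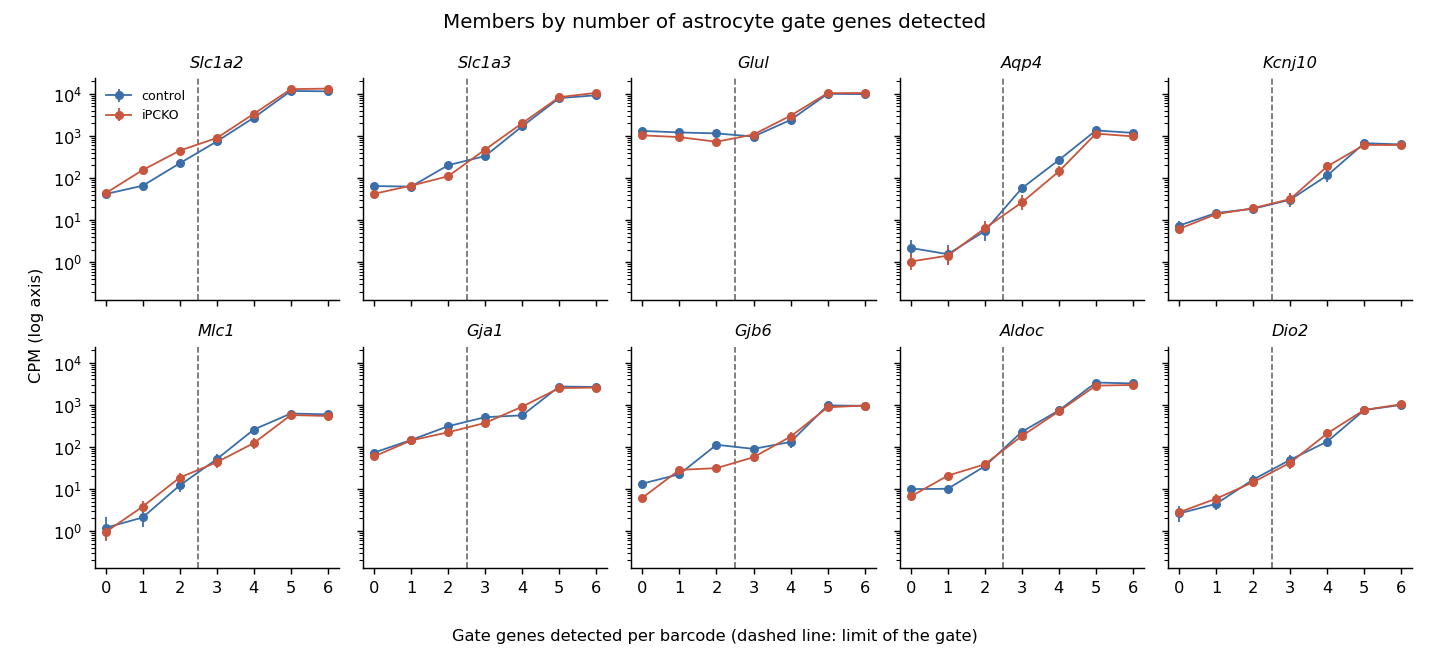
CPM (log axis) of each of the 10 genes in barcodes grouped by the number of gate genes detected, 0 to 6 on the x axis, in the control (blue) and iPCKO (red) libraries, with exact Poisson 95% intervals. Control Glul stays between 965 and 1313 CPM up to 3 gate genes. Every gene is far higher at 5 gate genes than at the limit of the gate (dashed), with little further difference at 6 for most. Dio2 (746 and 993 CPM in the control at 5 and 6 gate genes) and Slc1a3 (7882 and 9222 CPM) are exceptions.

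Glul differed from the others on the low side of the gate, with 1313, 1207, 1145 and 965 CPM in control barcodes with 0, 1, 2 and 3 gate genes before it reached 2395, 9949 and 9817 CPM with 4, 5 and 6. Outside the gate it was therefore as high as just inside it, whereas Kcnj10 ranged from 7.41 CPM with 0 gate genes to 627 CPM with 6 and Mlc1 from 1.20 to 590.3 CPM. Within the gate the median barcode had a UMI of all 10 genes in both libraries, and 78.6% of control and 84.5% of iPCKO astrocytes had all 10. Outside the gate the median barcode had 2. When each barcode was thinned to 1500 UMIs, the median astrocyte had 8 of the 10 genes in both libraries, and 10.1% and 8.88% had all 10.

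The share of astrocytes with a UMI was highest for Glul, at 98.98% (97.999 to 99.6) in the control and 99.8% (99.2 to 99.97) in the iPCKO library. It was 98.2% and 98.8% for Slc1a2, and 86.6% and 91.1% for Gjb6. The thinned shares were 96.2% and 97.8% for Glul, 95.03% and 96.8% for Slc1a2, and 63.9% and 66.7% for Gjb6. For Aqp4 the share was 89.2% and 90.5% as deposited and 70.2% and 64.0% thinned, against 1.65% as deposited and 0.254% thinned in control endothelial-like barcodes, whose median of 9717.5 UMIs was close to that of the astrocytes. For Kcnj10 it was 87.1% and 91.4% as deposited and 51.1% and 50.4% thinned, against 0.635% as deposited in control endothelial-like barcodes. For Mlc1 the deposited shares were 88.5% and 90.8% and the thinned shares 55.4% and 50.6%. The iPCKO library thus had the higher share of Aqp4, Kcnj10 and Mlc1 as deposited and the lower one at equal depth. For all 3 genes the thinned intervals of the libraries overlapped, for Aqp4 only narrowly (66.8 to 73.3 and 60.7 to 67.2). Overlap of intervals does not test the difference.

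The next question was in which other cells of the cortex the 10 genes are found. The other classes were gated in the same way from 6 markers each, and 6 of them had at least 50 barcodes in both libraries: endothelial-like (788 and 1422), pericyte-like (252 and 371), smooth muscle-like (54 and 83), microglia-like (847 and 1383), neuron-like (59 and 203) and fibroblast-like (80 and 109). Statements on other classes below are about these 6. None of these classes had a marker of another class among its 10 leading genes. The endothelial-like barcodes of the control and the neuron-like barcodes of both libraries had 0 of their own markers there. Npy and Tac2 were among the leading genes of the neuron-like barcodes in both libraries, beside others such as Cplx3, Pcp4 and Bcl11b in the iPCKO library.

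In both libraries 8 of the 10 genes were at least 4-fold higher in astrocytes than in the next highest class. The share of all genes that reached this ratio was 3.02% in the control and 3.35% in the iPCKO library, and 31.5% and 30.7% among genes at least as high in astrocytes as the lowest of the 10. The exceptions were the gap junction genes Gja1 and Gjb6, both of which were next highest in fibroblast-like barcodes.

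Slc1a2, the main glutamate transporter gene of the mature forebrain, was at 9926 CPM in control astrocytes, 25.1-fold above neuron-like barcodes at 396 CPM (361 to 432). In the iPCKO library it was at 11718 CPM, 18.7-fold above neuron-like barcodes at 625 CPM (603 to 647). The remaining classes of the 6 lay between 17.3 and 32.5 CPM in the control and between 14.3 and 20.9 CPM in the iPCKO library. Microglia-like, fibroblast-like, endothelial-like and pericyte-like barcodes of the control were adjacent in this order with overlapping intervals.

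Slc1a3, whose transporter is the earlier and more widespread of the pair, was at 7612 and 9001 CPM in astrocytes and next highest in fibroblast-like barcodes at 402 CPM (364 to 442) and 294 CPM (265 to 326). Microglia-like barcodes followed at 92.9 CPM (84.9 to 101) and 63.8 CPM (58.9 to 69.1). Astrocyte RNA scaled to the Slc1a2 level of the microglia-like barcodes would hold 24.9 and 16.0 CPM of Slc1a3. In neuron-like barcodes, which had the second highest Slc1a2, Slc1a3 was at 25.2 and 13.3 CPM, against 303 and 480 CPM in astrocyte RNA scaled in this way. The part of astrocyte RNA in the levels of other classes was not tested.

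Glul was the least restricted of the 8, at 8543 CPM in control astrocytes and 4.81-fold above microglia-like barcodes at 1774 CPM (1739 to 1810). Endothelial-like barcodes followed at 1451 CPM (1427 to 1476) and fibroblast-like barcodes at 1427 CPM (1355 to 1501), whose intervals overlap. In the iPCKO library it was at 9276 CPM, 6.28-fold above fibroblast-like barcodes at 1477 CPM (1410 to 1546), with microglia-like barcodes at 1284 CPM (1261 to 1307) and endothelial-like barcodes at 1148 CPM (1132 to 1165). Astrocyte RNA scaled to their Slc1a2 would hold 28.0 CPM of Glul for control microglia-like and 24.1 CPM for control endothelial-like barcodes. Pericyte-like barcodes had 240 and 232 CPM of Glul and smooth muscle-like barcodes 194 and 220 CPM.

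The endfoot genes were at under 10 CPM in each of the 6 other classes. Aqp4 was at 1052 and 876 CPM in astrocytes and at most 3.84 CPM (1.05 to 9.84) in another class of the control, in fibroblast-like barcodes, and 1.84 CPM in one of the iPCKO library, in pericyte-like barcodes with 4 UMIs. It had 0 UMIs in control pericyte-like barcodes. Mlc1 was at 522 and 483 CPM in astrocytes and at most 2.88 and 3.38 CPM in the 6 classes. Kcnj10 was at 548 and 538 CPM in astrocytes and next highest at 8.14 CPM (3.90 to 14.97) in neuron-like barcodes of the control, where it rests on 10 UMIs, and at 7.93 CPM (6.24 to 9.92) in microglia-like barcodes of the iPCKO library. Control microglia-like barcodes had 5.87 CPM (4.02 to 8.29), against 1.79 CPM in astrocyte RNA scaled to their Slc1a2. The 22 oligodendrocyte precursor-like barcodes of the iPCKO library, too few for the comparison of classes and looked at after values were seen, had 256 CPM of Kcnj10 (173 to 366), 487 CPM of Slc1a3 (369 to 631) and 282 CPM of Slc1a2 (194 to 396), with 1 UMI of Mlc1 (8.55 CPM, 0.216 to 47.6) and 0 UMIs of Aqp4, Gja1 and Gjb6.

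Gja1, which encodes connexin 43, was at 2330 CPM in control and 2286 CPM in iPCKO astrocytes, 1.60-fold and 1.66-fold above fibroblast-like barcodes at 1455 CPM (1383 to 1530.5) and 1380 CPM (1315 to 1446). Endothelial-like barcodes held 132 CPM (125 to 139.9) and 107 CPM (102 to 112), against 6.58 and 2.79 CPM in astrocyte RNA scaled to their Slc1a2. Gjb6, which encodes connexin 30, was at 818 and 836 CPM in astrocytes, 1.42-fold and 2.00-fold above fibroblast-like barcodes at 577 CPM (532 to 625) and 419 CPM (384 to 456). It was at or below 1.84 CPM in every other class of both libraries. Both connexin genes were therefore shared with fibroblast-like cells, and Gja1 alone of the pair was also found in endothelial-like cells.

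Aldoc, the aldolase gene typical of brain, was at 2806 and 2595 CPM in astrocytes, 66.3-fold and 92.6-fold above neuron-like barcodes at 42.3 CPM (31.6 to 55.5) and 28.0 CPM. Dio2, whose deiodinase turns the prohormone thyroxine into active triiodothyronine, was at 797 and 869.9 CPM in astrocytes, 75.4-fold and 136-fold above fibroblast-like barcodes at 10.6 CPM (5.27 to 18.9) and 6.38 CPM. Dio2 in fibroblast-like barcodes rests on 11 and 8 UMIs.

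**Figure D2:**
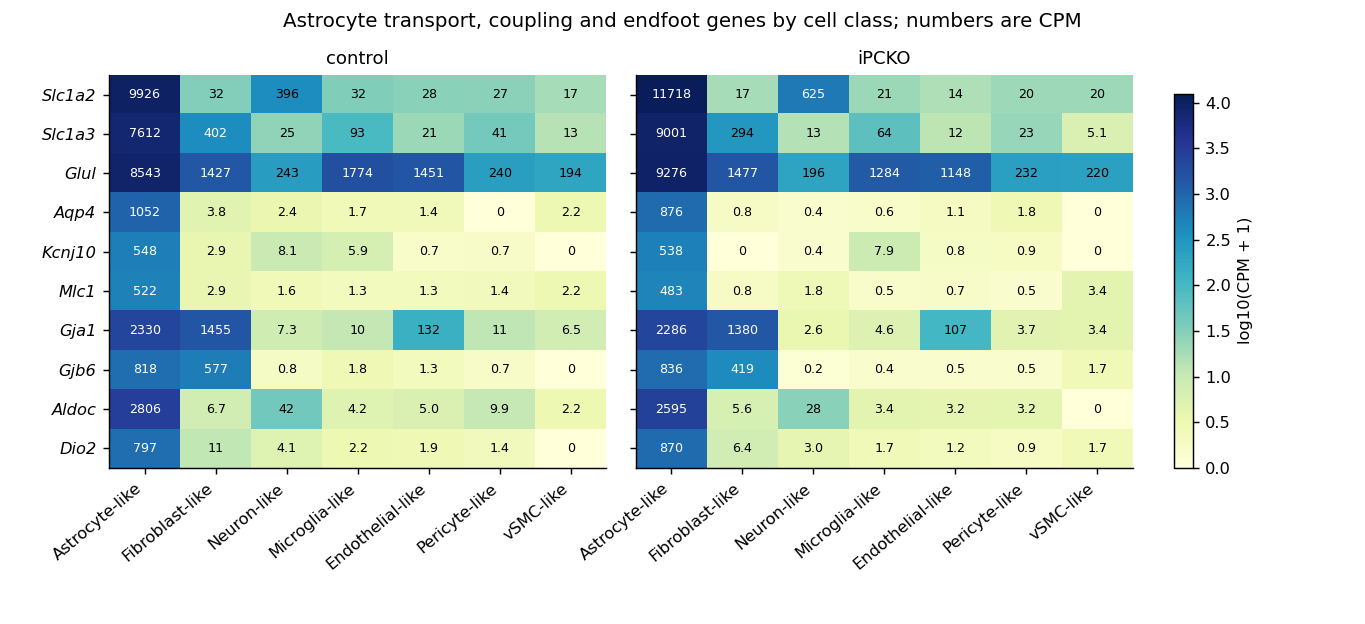
CPM of the 10 genes (rows) in 7 cell classes (columns) of the control and iPCKO libraries, with colour on a log10(CPM + 1) scale and the CPM written in each field. Astrocyte-like barcodes are highest in every row, and the nearest other values are the fibroblast-like fields of Gja1 (1455 and 1380 CPM) and Gjb6 (577 and 419 CPM).

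RNA outside cells was read from barcodes with fewer than 100 UMIs. There the 10 genes were at 14.8% (Kcnj10) to 26.3% (Glul) of their astrocyte level in the control and at 8.27% (Aqp4) to 18.3% (Glul) in the iPCKO library. For Slc1a2 this was 2052 CPM in the control and 1712 CPM in the iPCKO library.

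Over the 7 classes of both libraries, 14 points that share libraries and depth, the genes whose profile was most like the mean of the 10 were Myorg, Gldc, Gpam, Grin2c and Gpr37l1, with Pearson r of 0.97 for each of them among 1628 candidates. The 10 genes themselves had r of 0.74 (Gja1) to 0.99 (Dio2) to their own mean. Gldc, which encodes the glycine decarboxylase of the glycine cleavage system, was at 106.5 and 106.1 CPM in astrocytes, and Gpr37l1, which encodes an orphan receptor, at 2246 and 2087 CPM.

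The comparison of genotypes used the UMIs summed over the gated astrocytes of each library. None of the 10 genes reached a ratio of 1.5-fold (0 of 10), while 13.4% of all 16685 genes tested did, 5.24% higher and 8.19% lower in iPCKO. Small counts spread widely, and among the 215 genes counted at least as often as the least counted of the 10 (9432 UMIs) the share was 2.79%. The median log2 ratio of iPCKO over control was 0.0020 for the 10 genes and -0.0078 for all genes tested. Their ratios ran from -0.26 to 0.24, and 81.9% of the 215 genes lay within the largest of these.

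Slc1a2 was at 9926 CPM (9860 to 9992) in control and 11718 CPM (11652 to 11785) in iPCKO astrocytes, a log2 ratio of 0.24 (0.23 to 0.25). Slc1a3 was at 7612 CPM (7554 to 7670) and 9001 CPM (8942 to 9059), also 0.24 (0.23 to 0.26). Glul, which acts on the glutamate that both take up, was at 8543 CPM (8481 to 8604) and 9276 CPM (9217 to 9336), 0.12 (0.10 to 0.13). The 3 genes of glutamate uptake and conversion were thus higher in the iPCKO library, by 1.18-fold, 1.18-fold and 1.09-fold. In barcodes with 5 or 6 gate genes, a choice made after values were seen, their log2 ratios were smaller, at 0.20, 0.20 and 0.08.

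Aqp4 was the lowest of the 10 ratios, with 9183 UMIs (1052 CPM, 1031 to 1074) in control and 8850 UMIs (876 CPM, 858 to 894) in iPCKO astrocytes, a log2 ratio of -0.26 (-0.31 to -0.22). Kcnj10 was at 548 CPM (533 to 564) and 538 CPM (524 to 552), -0.03 (-0.08 to 0.03). Mlc1 was at 522 CPM (507 to 537) and 483 CPM (469 to 497), -0.11 (-0.17 to -0.05). The endfoot genes therefore lay at or below the control, and the interval of Kcnj10 held 0. These are RNA levels. By immunostaining, the authors report that the cover of vessels by AQP4-positive endfeet was maintained in the mutant cortex.

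Gja1 was at 2330 CPM (2298 to 2362) and 2286 CPM (2257 to 2316), a log2 ratio of -0.03 (-0.05 to -0.00028), and Gjb6 at 818 CPM (799 to 837) and 836 CPM (818 to 854), 0.03 (-0.01 to 0.08). The ratios of Kcnj10 and Gjb6 took either sign under other settings. Aldoc was at 2806 CPM (2771 to 2842) and 2595 CPM (2564 to 2627), -0.11 (-0.14 to -0.09). Dio2 was at 797 CPM (778 to 816) and 869.9 CPM (852 to 888), 0.13 (0.08 to 0.17). Control and iPCKO barcodes with 5 gate genes had 746 CPM (708 to 786) and 754 CPM (707 to 803) of Dio2. Those with 6 gate genes had 993 CPM (967 to 1020) and 1025 CPM (1003 to 1049). The intervals of the genotypes overlapped at 5 and at 6 gate genes. With at least 5 gate genes, a choice made after values were seen, the log2 ratio of Dio2 was 0.09. The part of the barcode mix in the ratio of 0.13 was not tested.

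For 8 of the 10 genes the counting interval left out 0, 4 above and 4 below. This was so for 26.2% of all genes tested and for 85.1% of the 215 genes of like count, so that at this depth a counting interval without 0 was the usual case. Summed over the 10 genes the level was 3.50% of astrocyte UMIs in the control and 3.85% in the iPCKO library. A difference between mice of 1 genotype is not in these intervals.

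**Figure D3:**
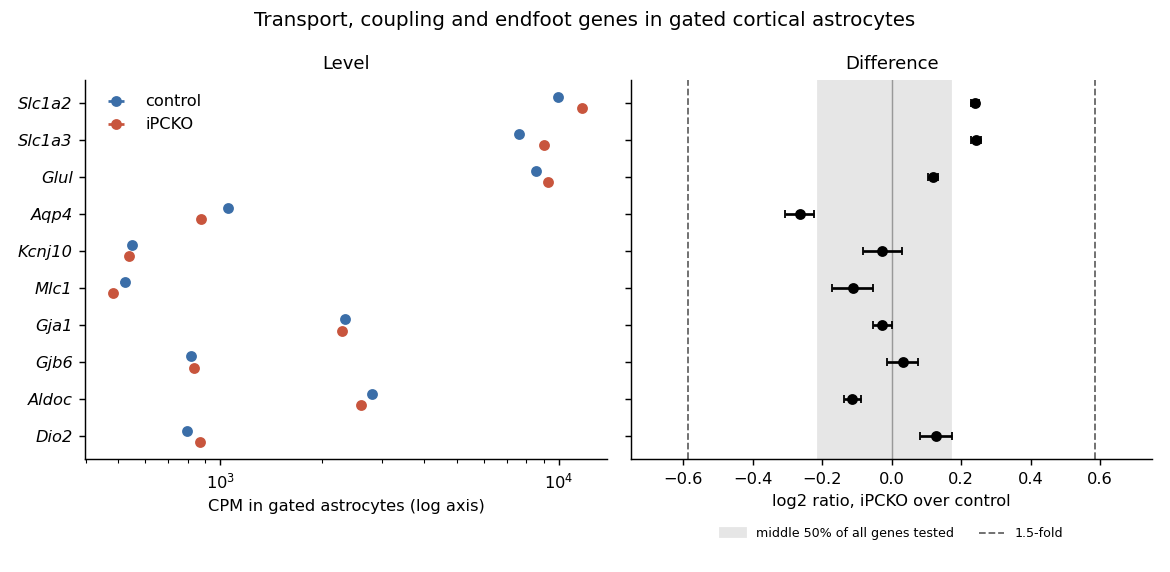
Left, CPM (log axis) of the 10 genes in gated astrocytes of the control (blue) and iPCKO (red) library with exact Poisson 95% intervals, most of them smaller than the points. Right, the log2 ratio of iPCKO over control with its conditional exact 95% interval, the middle 50% of all genes tested in grey (-0.21 to 0.17) and 1.5-fold as dashed lines, which none of the 10 genes reaches.

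Several other gene groups differed between the genotypes in the same barcodes. Of 14 dissociation and immediate-early genes 6 were past 1.5-fold, all higher in iPCKO, with a median log2 ratio of 0.45, beside 5.24% of all genes tested that were past it higher and a median of -0.0078. Among them were Ier2 (1.04), Egr1 (0.92) and Btg2 (0.79), and the list summed to 5534 and 8443 CPM. The authors report Fos, Fosb, Jun, Junb, Egr1 and Nr4a1, all in this list, as reactive astrocyte genes that were higher in the mutant. They also name Gfap among the genes that were higher. In the astrocytes gated here Gfap was at 257 and 260 CPM, and 52.2% and 62.5% of barcodes had a Gfap UMI. By immunostaining, the authors also report FOS enriched in astrocytes of mutant cortex sections. In cultured astrocytes they report less nuclear FOS and FOSB after recombinant Nodal. The part of dissociation in the ratios of this list was not tested. Of 6 cell cycle genes 5 were past 1.5-fold higher, beside the same 5.24%, with Ccnb1 at 2.08 and Cenpf at 1.11, and astrocytes with at least 2 of them made up 2.30% of the control (1.37 to 3.60) and 3.74% of the iPCKO barcodes (2.57 to 5.24). The smooth muscle markers summed to 45.5 and 12.05 CPM, the ependymal markers to 52.9 and 14.5 CPM, the microglia markers to 96.7 and 54.5 CPM, and the choroid plexus markers, carried by Ttr, to 99.9 and 2.18 CPM. The fibroblast markers summed to 445 and 369 CPM, the endothelial markers to 178 and 144 CPM, the pericyte markers to 66.0 and 55.5 CPM, the oligodendrocyte markers to 8.02 and 3.99 CPM and the border macrophage markers to 3.95 and 2.57 CPM. These 9 lists had the lower sum in iPCKO, with an interval of the ratio that held 0 for border macrophages. Higher in iPCKO were the oligodendrocyte precursor markers, at 17.7 and 28.3 CPM, and the neuron markers, at 403 and 471 CPM. The median astrocyte had 0 CPM of each of these 11 lists in both libraries. Astrocytes with over 15% mitochondrial UMIs numbered 108 in the control and 66 in the iPCKO library. Without those barcodes the ratios of the 10 genes ran from -0.22 (Aqp4) to 0.26 (Slc1a2). They ran from -0.25 (Aqp4) to 0.26 (Slc1a3) without astrocytes with at least 2 cell cycle genes, from -0.26 (Aqp4) to 0.25 (Slc1a3) when immediate-early UMIs were left out of the total, and from -0.29 (Aqp4) to 0.22 (Slc1a3) without barcodes that reached 3 markers of another class.

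The further genes of the same pathways were counted in 5 lists. Of 38 tested genes 0 were past 1.5-fold higher and 1 was past it lower, the amino acid transporter gene Slc38a5 (22.6 and 14.8 CPM, -0.60), named after its value was seen. The share past 1.5-fold in either direction was 13.4% of all genes tested, 5.57% of those with at least 100 UMIs and 2.79% of the 215 most counted, so that 1 of 38 is not a result about these pathways. The list of glutamate, GABA and amino acid handling had a median log2 ratio of 0.07 over 10 genes. In it Slc6a11, which encodes a GABA transporter, was at 0.10, and the glycine transporter gene Slc6a9 was at -0.49. The list of ion and water handling and endfoot anchoring had a median of -0.04 over 10 genes. Kcnj16, whose channel subunit pairs with that of Kcnj10, was the highest there at 0.42 (144 and 192 CPM), and the sodium pump subunit gene Atp1b2 was at -0.07. Dag1 and Dtna of the complex that anchors the Aqp4 channel at endfeet were at 0.02 and -0.05.

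The gap junction and contact list had a median of 0.26 over 3 tested genes, with Gjb2, another connexin gene, at -0.17 (-0.38 to 0.04), Tjp1 at 0.26 and Panx1 at 0.48 (-0.11 to 1.07). Gjb1 and Gjc3, which belong to oligodendrocytes, had too few UMIs to be compared in astrocytes. The glycolysis, glycogen and lactate list had a median of -0.03 over 9 genes, from -0.12 to 0.16, beside -0.11 for Aldoc. The thyroid hormone list had a median of 0.02 over 6 genes. In it Slco1c1, which encodes a thyroxine carrier, was at -0.20 (1139 and 993 CPM), and the receptor genes Thra and Thrb were at 0.04 and -0.0079, beside 0.13 for Dio2. Klf9 and Hr, which respond to the hormone, were at 0.05 and -0.45.

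**Figure D4:**
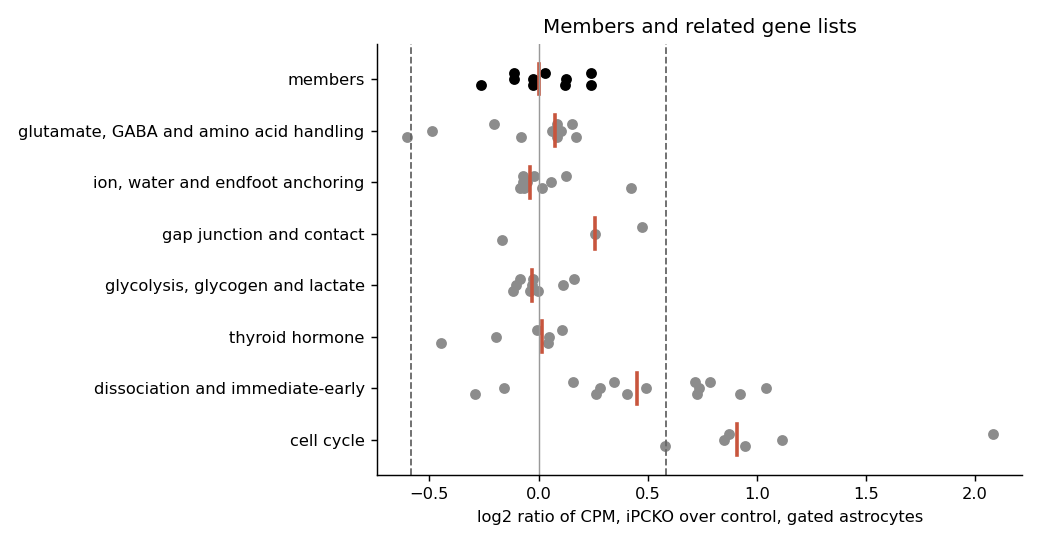
Log2 ratio of CPM, iPCKO over control, in gated astrocytes for the 10 genes (black) and for the tested genes of 7 related lists (grey), with the median of each list in red and 1.5-fold as dashed lines. The 5 pathway lists have medians from -0.04 to 0.26 with 1 gene beyond the lines, and the immediate-early (median 0.45) and cell cycle (median 0.91) lists are shifted to the right.

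In the other classes the ratio of genotypes was taken where a gene had 20 or more UMIs, both libraries summed. Past 1.5-fold lower in iPCKO were 6 of 9 such genes of the list in endothelial-like, 3 of 5 in pericyte-like, 2 of 7 in microglia-like, 3 of 6 in neuron-like, 1 of 5 in fibroblast-like and 0 of 2 in smooth muscle-like barcodes, and 1, Slc1a2 in neuron-like barcodes, was past it in the other direction. In the same order 8.43, 7.39, 11.4, 14.0, 9.61 and 14.4% of all genes tested were past it lower, and 13.1, 15.5, 19.2, 22.0, 19.4 and 23.0% in either direction. Most of these values rest on few UMIs, as for Gjb6 in endothelial-like barcodes with 12 and 8. Slc1a2 in endothelial-like barcodes was at 28.0 CPM (24.7 to 31.7) in the control and 14.3 CPM (12.5 to 16.3) in the iPCKO library, and Slc1a3 at 20.7 and 11.7 CPM, close to the 21.5 and 11.004 CPM of astrocyte RNA scaled to that Slc1a2. Slc1a2 in RNA outside cells was lower in the iPCKO library as well, as given above, and its part in these low levels was not tested. Slc1a2 in neuron-like barcodes was higher in the iPCKO library, 396 against 625 CPM (log2 ratio 0.66, 0.52 to 0.80). Its 59 control and 203 iPCKO barcodes had medians of 16593 and 23835 UMIs and partly different leading genes, such as Crh and Calb2 in the control and Cplx3 and Bcl11b in the iPCKO library.

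Glul was lower in the iPCKO library in microglia-like barcodes, 1774 against 1284 CPM (-0.47, -0.51 to -0.43), and in endothelial-like barcodes, 1451 against 1148 CPM (-0.34, -0.37 to -0.31), and at 0.05 (-0.05 to 0.15) in fibroblast-like barcodes. The ratio of Glul stayed within 1.5-fold in each of these. Over 34 pairs of a gene of the list and another class, 11 had intervals on the opposite side of 0 from astrocytes, beside 2.77% of such pairs over all genes tested and 19.6% over those of like count. In fibroblast-like barcodes Gja1 was at -0.08 (-0.18 to 0.02) and Gjb6 at -0.46 (-0.63 to -0.29). Gja1 in endothelial-like barcodes was at -0.31 (-0.41 to -0.20).

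Among astrocytes of 1 library the 10 genes varied with Gfap. A Gfap UMI was found in 409 of 784 control (52.2%, 48.6 to 55.7) and 535 of 856 iPCKO barcodes (62.5%, 59.2 to 65.8), at median depths of 10658 and 11620 UMIs against 10104 and 10679 in those without. All 10 genes were higher in barcodes with a Gfap UMI, by 0.16 (Dio2) to 0.69 (Aqp4) on the log2 scale in the control and by 0.21 (Dio2) to 0.82 (Aqp4) in the iPCKO library. Of all genes tested 36.8% and 38.3% were higher there, and of the 215 genes of like count 80.0% and 78.1%, so that being higher was the usual case for genes counted this often. Barcodes with 3 or 4 gate genes, low in all 10, were mostly without Gfap, and the split was therefore repeated in the 676 and 762 barcodes with 5 or 6 gate genes, a choice made after values were seen.

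There the genes parted. Aqp4 was still higher with Gfap, at 1323 against 1078 CPM in the control (0.29, 0.23 to 0.36) and 1077 against 825 CPM in the iPCKO library (0.38, 0.32 to 0.45). Mlc1 was higher by 0.18 and 0.25, Aldoc by 0.18 and 0.16, and Slc1a2 by 0.17 and 0.13. Dio2 was lower with Gfap, at 876 against 1005 CPM in the control (-0.20, -0.27 to -0.13) and 937 against 1092 CPM in the iPCKO library (-0.22, -0.28 to -0.16). Glul (0.0031 and -0.0033) and Kcnj10 (-0.03 and 0.00049) had intervals that held 0 in both libraries. Slc1a3 (0.03 and 0.05) and Gja1 (0.05 and 0.04) were slightly higher with Gfap, with intervals that left out 0 in both libraries. Their lower bounds were 0.0074 and 0.033 for Slc1a3 and 0.0062 and 0.00048 for Gja1. The spread between barcodes is not in these counting intervals. Gjb6 was at -0.02 (-0.09 to 0.05) in the control and -0.10 (-0.17 to -0.04) in the iPCKO library. Thus 7 of the 10 genes had intervals on the same side of 0 in both libraries, of which Dio2 alone was lower with Gfap, beside 3.84% of all genes tested and 50.7% of those of like count. Such intervals were common among genes counted this often, so that 7 of 10 is not a result about the list.

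Over barcodes with 5 or 6 gate genes, which share a library and differ in depth, the pairwise Pearson r of log2(CPM + 100) had a median of 0.26 in the control and 0.23 in the iPCKO library, against 0.59 and 0.60 over all gated barcodes. The highest pair in both was Glul and Aldoc (0.66 and 0.54), although Glul did not differ with Gfap beyond its interval, and Aqp4 and Mlc1, both higher with Gfap, were at 0.26 and 0.13. The lowest value was that of Mlc1 and Dio2 in the control (-0.10, and -0.02 in the iPCKO library) and that of Aqp4 and Dio2 in the iPCKO library (-0.06, and -0.06 in the control). These weak values in sparse counts are given as a description.

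Astrocytes with at least 2 of 6 cell cycle genes detected numbered 18 in the control and 32 in the iPCKO library, and all 10 genes were lower in them, as were 50.0% and 46.8% of all genes tested and 84.7% and 83.3% of those of like count. A lower level was thus the usual case for genes counted this often. Within the barcodes with 5 or 6 gate genes, 11 and 22 of them remained. There Aldoc was at 1326 against 3288 CPM in the control (-1.31, -1.53 to -1.10) and 1414 against 2996 CPM in the iPCKO library (-1.08, -1.21 to -0.96). Gjb6 was at -1.61 and -0.80, Gja1 at -0.83 and -0.79 and Glul at -0.70 and -0.56. Slc1a3 was at 0.02 (-0.06 to 0.10) and -0.47 (-0.52 to -0.41). In the control Kcnj10 was at 0.01 (-0.30 to 0.32) and Mlc1 at 0.22 (-0.08 to 0.51). In the iPCKO library they were at -0.24 (-0.46 to -0.03) and -0.25 (-0.49 to -0.03). The direction of Slc1a3, Kcnj10 and Mlc1 in the control, with 11 cycling barcodes, was thus not resolved. Median depths were 13362 and 15907 UMIs in these cycling barcodes against 10631 and 11341 in the others.

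**Figure D5:**
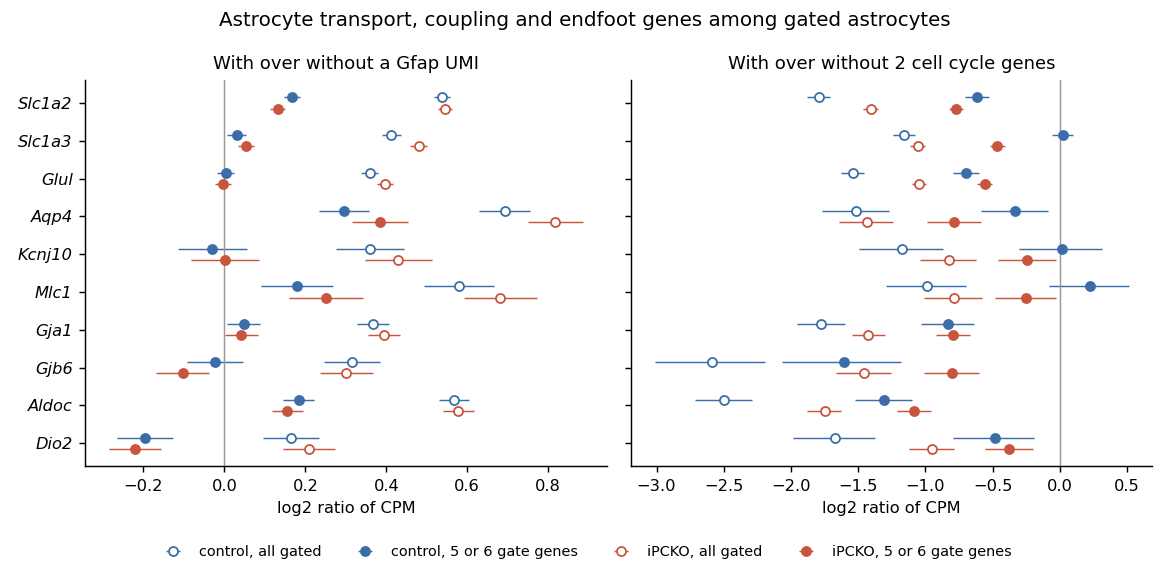
Log2 ratio of CPM between astrocytes with and without a Gfap UMI (left) and with and without at least 2 of 6 cell cycle genes (right), in the control (blue) and iPCKO (red) library, with 95% counting intervals. Open points are all gated barcodes and filled points those with 5 or 6 gate genes, where Aqp4 (0.29 and 0.38) and Dio2 (-0.20 and -0.22) lie on opposite sides of 0 on the left and Aldoc (-1.31 and -1.08) is low on the right.

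The levels were also read by depth. When the astrocytes of a library were divided into 3 groups by UMIs per barcode, Slc1a2 was at 10621, 11531 and 8709 CPM in the control and 12574, 13271 and 10414 CPM in the iPCKO library from the shallowest to the deepest group. Aqp4 was at 1038, 1207 and 963 CPM in the control and 929, 949 and 810.0 CPM in the iPCKO library. The control was lower for Slc1a2 and higher for Aqp4 in each of the 3 groups.

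In the P21 lung libraries, over all barcodes with at least 1500 UMIs, Slc1a2 was between 2.19 and 4.23 CPM, against 2923 and 2516 CPM over all such barcodes of the cortical libraries. Kcnj10 was at most 0.21 CPM in the lung. Glul was found in all 4, from 365 to 1077 CPM, and so was Gja1, from 61.2 to 116 CPM. Mlc1 was at 22.4 to 62.9 CPM in the lung.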

How the data were processed

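The authors aligned reads with STAR 2.7.10a (STARsolo) to GRCm39 with Gencode annotation (vM33 in the methods, M26 in the data availability statement), counted all barcodes without a cell filter at this step and shared multi-mapping reads by expectation maximization. Their later filters on barcode complexity, mitochondrial content and high counts, and their doublet scores, were not used here. The deposited values are therefore estimated counts of UMIs, not normalized. They were summed as deposited, and an entry of at least 0.5 counted as detected.

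Barcodes with at least 1500 UMIs were gated by detection of at least 3 of 6 markers. Barcodes of other classes had to have fewer than 3 markers of every other class. No doublet caller was run. Symbols occurring more than once (147) were not used. Total UMIs were 33889545 (control) and 54791946 (iPCKO).

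CPM carry exact Poisson, shares Clopper-Pearson and ratios conditional exact binomial 95% intervals (scipy 1.17.1, numpy 2.4.6, pandas 2.3.3). The share of all genes past a fold limit used ratios with 0.5 UMI added to both counts. Shares for the Gfap and cell cycle splits left out the genes that define them. UMIs of 1 library are not replicates, and no p-value was computed. The ratio and thinning steps were tested on simulated data. The genes, lists and limits were chosen with earlier results of these data known. Genes named beyond the 10 were related genes past 1.5-fold (at most the 8 largest), the 10 leading genes of the gate, the 5 most similar profiles, Nodal and Gfap. Other genes of the related lists, leading genes of the neuron-like barcodes and Ttr were named after their values were seen. Some genes of the related lists are not reported here.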

Additional observations from a re-analysis of the deposited data

Results flagged for a closer look

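In 11 of 34 pairs of a gene and another cell class the ratio of iPCKO over control had the opposite sign from that in astrocytes, with both counting intervals leaving out 0. The same held for 2.77% of the pairs over all genes tested and for 19.6% over genes counted at least as often in astrocytes as the least counted of the 10. With 1 library per genotype, the difference between classes was not tested. Against 0.24 in astrocytes, the log2 ratio of Slc1a2 was -0.97 in endothelial-like, -0.64 in microglia-like and -0.92 in fibroblast-like barcodes. Against 0.24 in astrocytes, that of Slc1a3 was -0.82 in endothelial-like, -0.84 in pericyte-like, -0.54 in microglia-like, -0.92 in neuron-like and -0.45 in fibroblast-like barcodes. Against 0.12 in astrocytes, that of Glul was -0.34 in endothelial-like, -0.47 in microglia-like and -0.31 in neuron-like barcodes. In RNA outside cells Slc1a2 was at 2052 CPM in the control and 1712 CPM in the iPCKO library, and Slc1a3 at 1270 and 1051 CPM. The part of this RNA in the ratios was not tested.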

How the results depend on the processing

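With 0 replicates per genotype, no setting leaves out a library, and intervals cover counting error alone. Over the 14 alternatives planned for the gate, depth, scaling and rounding, 113 of 140 ratios of the 10 genes stayed inside the counting interval of the reported ratio, and all lay between -0.30 and 0.26. Over 5 alternatives added after seeing the data it was 32 of 50, between -0.41 (Aqp4 without a Gfap UMI) and 0.26. None of the 10 genes passed 1.5-fold in these. The reported ratios passed neither the lower nor the higher fold limit tried, whereas Aqp4 without a Gfap UMI lay past the lower one. Signs changed for Kcnj10 (0.01 as mean of barcode CPM) and Gjb6 (-0.05 with at least 2 gate genes). The median ratio of the 10 genes moved from 0.0020 to -0.0498 with at least 2 gate genes. Genes past 1.5-fold numbered 2241 with at least 20 UMIs, 11483 with at least 1 UMI, 671 with at least 100 UMIs and 6 with at least as many UMIs as the least counted of the 10. The median share of astrocytes with a UMI was 91.5% and 94.2% as deposited and 78.8% and 78.1% thinned to 1500 UMIs. The count of 8 genes at least 4-fold above the next class held in all 3 alternatives and both libraries. The scalings by median ratio and by trimmed mean shifted all ratios by 0.01. No paired analysis was possible because each genotype has 1 library and no test was run.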
